A study of Mus musculus with 4 samples.

Results

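The genes of fatty acid and triglyceride synthesis were followed in the livers of mice that lack the Cyp3a gene cluster and of wild type mice. The set holds 32 genes of lipogenesis, chain elongation, desaturation, triglyceride assembly and their regulators, found on the arrays through the RefSeq accession of each probe. All 32 had a probe, 44 probes in all, and 31 were measured, out of 17406 genes and unnamed transcripts measured in the series. Pnpla3, which codes for a lipid droplet protein that remodels triglyceride, had 2 probes, of which one was well above background on 1 array and the other on 0 arrays, so it was not measured in either genotype. The study set total RNA of 2 livers of the genotype wild type against 2 livers of the genotype Cyp3a-/-, on 1-colour Agilent expression arrays with 1 liver on each. The labels name no treatment, and they do not say how the cluster was deleted or whether the mice were littermates. Strain, sex, age and time of last feeding are not given in the sources used here.

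The label of the mutant livers was checked on Cyp3a11, the main Cyp3a gene of mouse liver, whose signal was 7.94 and 8.09 in the wild type livers while neither Cyp3a-/- liver had it well above background. All signals are log2 values relative to the 75th percentile of the array, so that a gene at 0 is as bright as that percentile. They serve to compare livers within a gene and not genes with each other, because probes differ in brightness. The 75th percentile lay between 308 and 352 intensity units, 54.4% to 56.4% of probes were well above background and 0 probes were saturated on any array. The tissue label was checked on 10 hepatocyte markers, all of which were measured. The wild type livers shared a slide while each Cyp3a-/- liver was on a slide of its own, so slide and genotype cannot be told apart. These are pieces of whole liver, in which fewer cells of a type and less RNA per cell cannot be told apart.

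Liver turns surplus carbohydrate into fat. Citrate leaves the mitochondria and is split to acetyl-CoA, acetyl-CoA carboxylase makes malonyl-CoA from it, and fatty acid synthase builds palmitate with the help of NADPH. Palmitate is then lengthened, desaturated, activated with coenzyme A and attached to glycerol 3-phosphate until triglyceride is formed. Insulin drives the pathway through the transcription factor SREBP-1c and glucose drives it through ChREBP, so feeding and fasting are known to move its genes strongly. SREBP-1c works on many of these promoters together with NF-Y, a factor that binds the letters CCAAT, and the letters CACGTG, called an E-box, are bound by USF and related factors.

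The upstream sequences of 4 members are given here, and no expression result below uses them. These members were taken because Thrsp and Lpin1 had the largest positive differences between genotypes, Elovl5 the lowest p, and Fasn is the central enzyme. Each is the 250 bases before the RefSeq start of the gene, read 5′ to 3′ on the gene's strand in build GRCm38.p6, with CCAAT and CACGTG, found on either strand, in capitals. Thrsp lies at chr7:97417551-97417800 on the minus strand, Fasn at chr11:120824548-120824797 on the minus strand, Elovl5 at chr9:77917115-77917364 on the plus strand and Lpin1 at chr12:16610967-16611216 on the minus strand.
Thrsp: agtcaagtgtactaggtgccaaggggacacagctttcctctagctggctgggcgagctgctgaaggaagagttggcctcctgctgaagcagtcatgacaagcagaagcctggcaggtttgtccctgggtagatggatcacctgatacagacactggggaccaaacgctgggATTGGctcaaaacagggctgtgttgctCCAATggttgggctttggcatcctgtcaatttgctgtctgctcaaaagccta
Fasn: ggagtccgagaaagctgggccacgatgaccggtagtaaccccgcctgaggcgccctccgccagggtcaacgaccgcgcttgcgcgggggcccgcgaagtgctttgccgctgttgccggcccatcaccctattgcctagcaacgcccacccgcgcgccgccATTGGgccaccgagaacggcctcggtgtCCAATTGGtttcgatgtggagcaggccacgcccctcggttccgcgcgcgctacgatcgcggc
Elovl5: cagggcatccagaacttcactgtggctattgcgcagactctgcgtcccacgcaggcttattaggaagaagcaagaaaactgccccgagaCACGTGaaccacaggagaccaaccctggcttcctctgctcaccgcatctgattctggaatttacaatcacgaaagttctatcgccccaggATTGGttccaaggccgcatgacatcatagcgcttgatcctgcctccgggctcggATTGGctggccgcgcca
Lpin1: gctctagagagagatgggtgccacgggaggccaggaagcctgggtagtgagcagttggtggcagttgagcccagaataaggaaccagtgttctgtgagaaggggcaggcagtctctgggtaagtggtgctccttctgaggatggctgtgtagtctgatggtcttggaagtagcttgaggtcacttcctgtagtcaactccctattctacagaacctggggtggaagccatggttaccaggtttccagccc
In Thrsp the matches to CCAAT begin 79 and 52 bases before the start, and in Fasn they begin 90, 62 and 59 bases before it, the last pair overlapping on opposite strands. Elovl5 has an E-box beginning 161 bases before its start and matches to CCAAT at 71 and 17 bases. None of the searched letters occurs in the Lpin1 window.

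RefSeq promoter entries were matched for 27 of the 32 members, with 37 start windows among them. Scd1, Scd2, Fads1, Dgat1 and Dgat2 had no entry. At least one CCAAT stood in 18 of the 37 windows (48.6%), against 33.8% of all 32851 windows of the same length among these entries, which do not cover every mouse gene. The E-box CACGTG stood in 4 windows (10.8%), those of Elovl5, Lpin2, Mlxipl and Slc25a1, against 6.02% of all windows. The sterol regulatory element, searched as TCACNCCAC on both strands, stood in 1 window (2.7%), that of Mlxipl, against 1.05% of all. Such a match describes the letters and is not evidence of binding.

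No member passed the test of genotype. With limma and Benjamini-Hochberg adjustment over all 17406 features, 0 of the 31 measured members had an adjusted p under 0.05, where 48 features (0.276%) did. At an unadjusted p under 0.05 there were 6 members (19.4%), against 1745 features (10.0%). Of these, Thrsp, Lpin1 and Acsl3 were higher in the Cyp3a-/- livers (9.68% of members, against 4.60% of features) and Elovl5, Scd1 and Fads2 were lower (9.68%, against 5.42%). The median difference over the 31 members was -0.02, with 14 above 0 and 17 below, and that over all features was 0.01. The livers of the genotypes did not overlap for 13 members (41.9%), close to the 42.8% of all features. An absolute difference of 0.5 or more was reached by 9 members (29.0%), against 16.1% of all features.

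**Figure D1:**
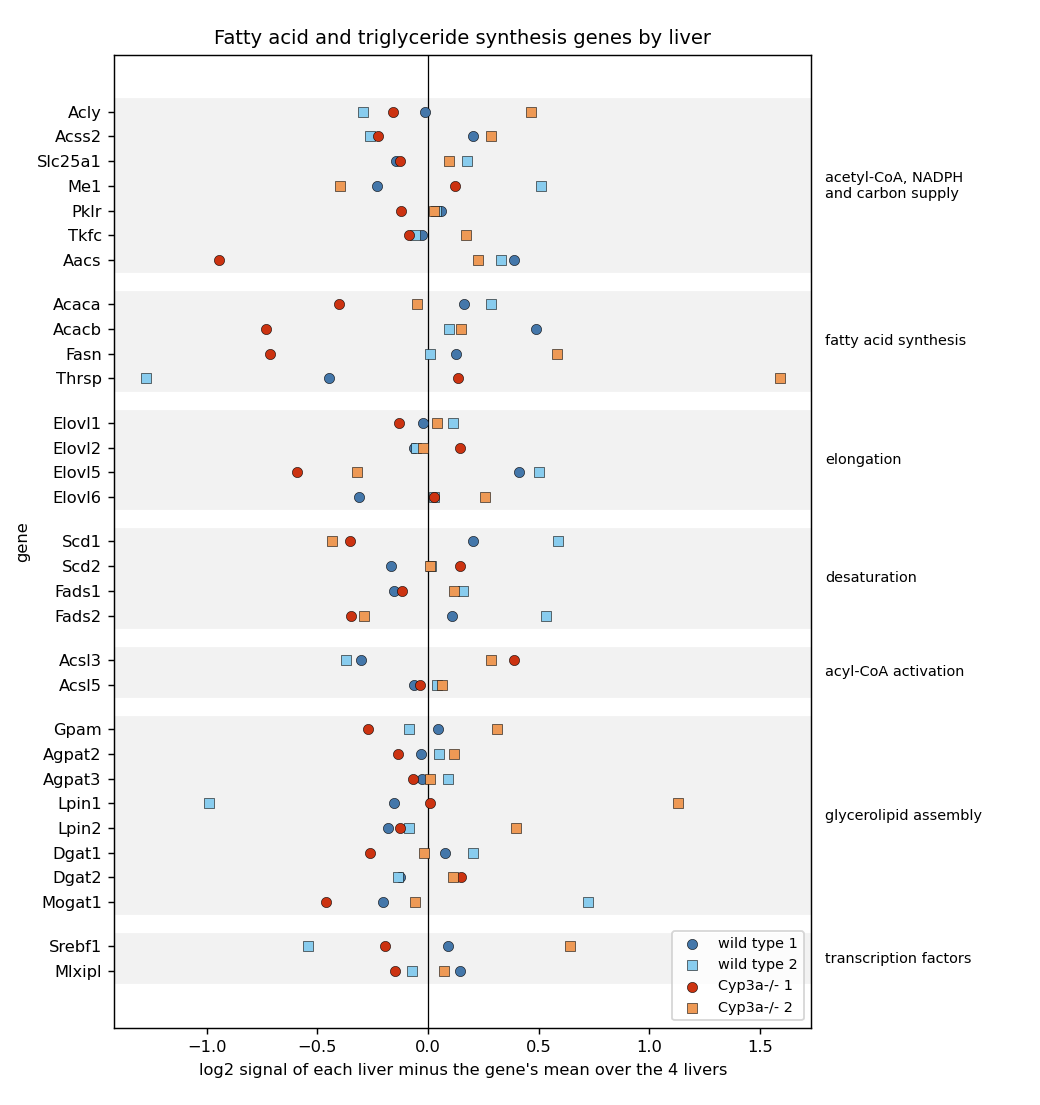
Log2 signal of each liver minus the mean of the gene over the 4 livers, for the 31 measured members ordered by role; points are single livers, coloured by genotype. Thrsp and Lpin1 are highest in Cyp3a-/- 2, and Elovl5, Scd1 and Fads2 are lower in both Cyp3a-/- livers than in both wild type livers.

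Among the enzymes that supply acetyl-CoA, NADPH and carbon, 0 of 7 differed at an unadjusted p under 0.05. Aacs, which activates acetoacetate to acetoacetyl-CoA in the cytosol, was at 2.36 and 2.30 in the wild type livers and at 1.03 and 2.20 in the Cyp3a-/- livers. One Cyp3a-/- liver thus stood more than 1 unit under the other 3, which lay close together. The difference between genotypes was -0.72 ± 0.39 (SE, n = 2 against 2; adjusted p = 0.602). It was -0.13 without Cyp3a-/- 1 and -1.30 without Cyp3a-/- 2. Acly, the ATP citrate lyase that makes cytosolic acetyl-CoA, was at 4.74 and 4.46 against 4.59 and 5.22, a difference of 0.31 ± 0.27 with the genotypes overlapping. Acss2, which makes acetyl-CoA from acetate, was at 3.85 and 3.38 against 3.42 and 3.93, so each genotype held a high and a low liver. Me1, the malic enzyme that yields NADPH, was at 3.73 and 4.47 against 4.08 and 3.56, a difference of -0.28 ± 0.32. Its other 2 probes gave -0.92 and -0.36, and the mean of its probes -0.52. The remaining members of the group were Slc25a1, the mitochondrial citrate carrier, Pklr, the liver pyruvate kinase, and Tkfc, which phosphorylates dihydroxyacetone and glyceraldehyde. Their differences between genotypes lay between -0.10 and 0.09, with adjusted p of 0.878 or more.

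Among the genes of chain building, Acaca, Acacb and Fasn had differences below 0 and Thrsp one above 0. Acaca, the acetyl-CoA carboxylase of the cytosol, was at 3.50 and 3.63 in the wild type livers and at 2.94 and 3.29 in the Cyp3a-/- livers. Both Cyp3a-/- livers lay under both wild type livers, and the difference was -0.45 ± 0.20 (adjusted p = 0.552). Its other 2 probes gave -0.60 and -0.49. Acacb, the carboxylase at the mitochondrial surface that limits fatty acid oxidation, was at 3.62 and 3.23 against 2.40 and 3.29. Here one Cyp3a-/- liver was low and the other was within the wild type values, and the difference was -0.58 ± 0.34 (adjusted p = 0.618). It was -0.14 without Cyp3a-/- 1 and -1.02 without Cyp3a-/- 2.

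Fasn, the fatty acid synthase, was at 0.25 and 0.13 in the wild type livers and at -0.59 and 0.71 in the Cyp3a-/- livers. The Cyp3a-/- livers held both its lowest and its highest value, with Cyp3a-/- 2 higher than Cyp3a-/- 1 by 1.30, while the wild type livers lay between them. Its mean difference between genotypes was -0.13 ± 0.43 (adjusted p = 0.933). Thrsp, also called Spot 14, is a small nuclear and cytosolic protein known to follow lipogenesis and to respond to thyroid hormone and carbohydrate. It was at 4.24 and 3.42 in the wild type livers and at 4.83 and 6.28 in the Cyp3a-/- livers. Both Cyp3a-/- livers were above both wild type livers, but the livers within a genotype also stood apart, by 1.45 for Cyp3a-/- 2 over Cyp3a-/- 1. The difference was 1.72 ± 0.53, a 3.30-fold higher mean, with an unadjusted p of 0.0196 and an adjusted p of 0.389. With 1 liver left out in turn the difference was between 1.00, without Cyp3a-/- 2, and 2.45, without Cyp3a-/- 1.

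Among elongases and desaturases, Elovl5, Scd1 and Fads2 were lower in both Cyp3a-/- livers than in both wild type livers. Elovl5, which lengthens polyunsaturated fatty acids, was at 4.47 and 4.57 in the wild type livers and at 3.47 and 3.74 in the Cyp3a-/- livers. The livers of a genotype lay within 0.274 of each other and the genotypes did not overlap. The difference was -0.91 ± 0.19, which makes the wild type mean 1.88-fold higher, with an unadjusted p of 0.00381 and an adjusted p of 0.247. The other elongases differed by -0.09 for Elovl1, which acts on very long chains, by 0.12 for Elovl2, which acts on long polyunsaturated chains, and by 0.29 ± 0.21 for Elovl6, which lengthens palmitate to stearate. Elovl6 was at 2.39 and 2.73 against 2.73 and 2.96, so its lower Cyp3a-/- liver lay just above its higher wild type liver. None of these 3 had an adjusted p under 0.684.

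Scd1, the main stearoyl-CoA desaturase of liver, which makes oleate and palmitoleate, was at 6.72 and 7.10 in the wild type livers and at 6.16 and 6.08 in the Cyp3a-/- livers. The genotypes did not overlap, and the wild type mean was 1.73-fold higher, with a difference of -0.79 ± 0.21, an unadjusted p of 0.0104 and an adjusted p of 0.323. Fads2, the delta-6 desaturase that opens the path to arachidonic and docosahexaenoic acid, was at 0.12 and 0.55 against -0.33 and -0.27. It did not overlap between genotypes either, and the wild type mean was 1.56-fold higher, with a difference of -0.64 ± 0.21, an unadjusted p of 0.0269 and an adjusted p of 0.427. Fads1, the delta-5 desaturase that follows it in the same path, was at 3.08 and 3.39 against 3.12 and 3.35. Its livers overlapped fully and its mean difference rounded to 0.00. Scd2, an isoform better known from other tissues, was at -1.31 and -1.12 against -0.996 and -1.13, a difference of 0.15.

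**Figure D2:**
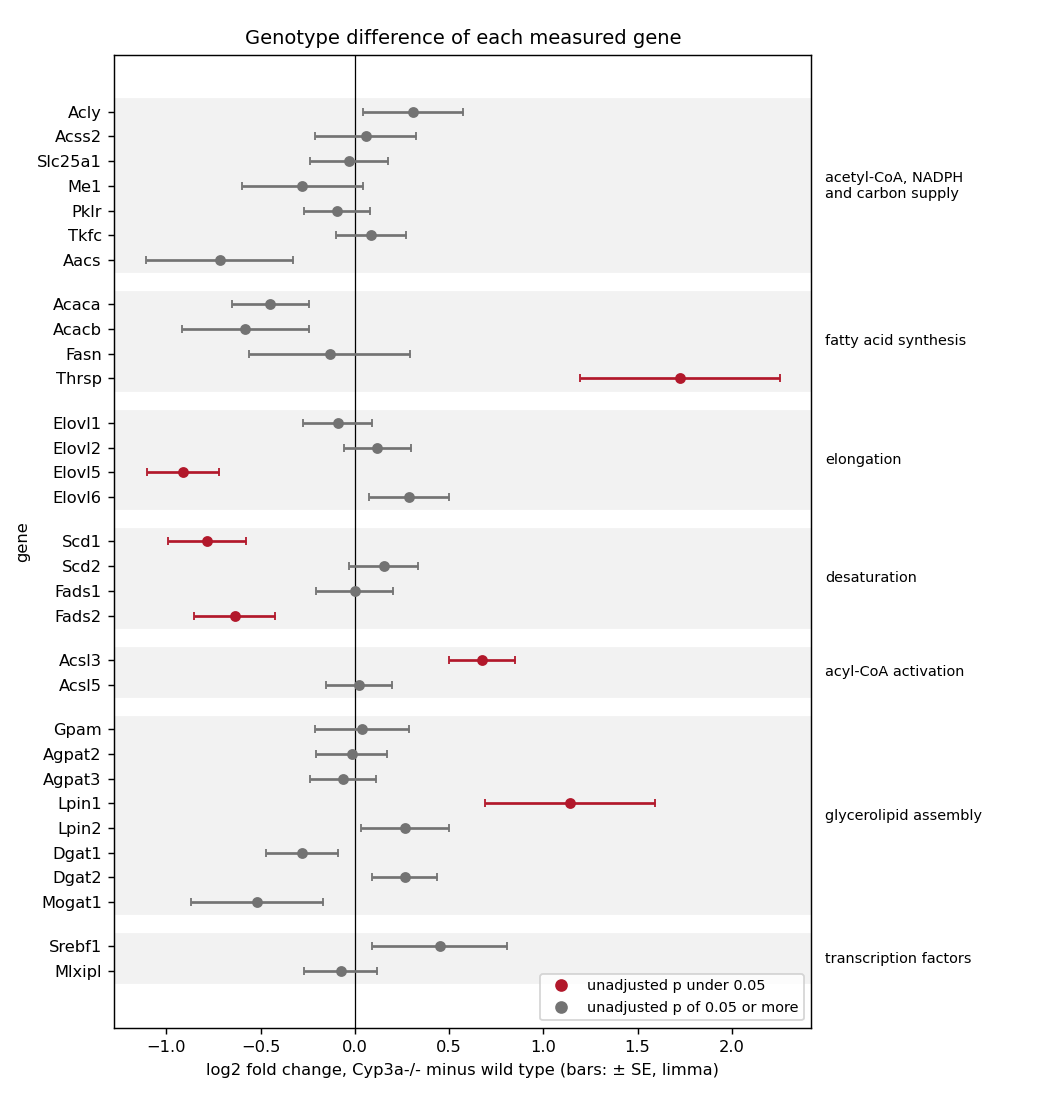
Difference in log2 signal, Cyp3a-/- minus wild type, with its standard error from limma for the 31 measured members (2 livers of each genotype); red marks the 6 members with an unadjusted p under 0.05, none of which had an adjusted p under 0.05. Thrsp (1.72) and Lpin1 (1.14) have the largest positive values and wide errors, and Elovl5 (-0.91) has the largest negative one.

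Of the members that code for long-chain acyl-CoA synthetases, which activate fatty acids, Acsl3 had non-overlapping genotypes and Acsl5 did not. Acsl1 and Acsl4, synthetases outside the members, also had non-overlapping genotypes, with differences of -0.13 and -0.14. Acsl3, a synthetase found at the endoplasmic reticulum and on forming lipid droplets, was at -1.23 and -1.30 in the wild type livers and at -0.54 and -0.64 in the Cyp3a-/- livers. The livers of each genotype lay close together, and the Cyp3a-/- pair was higher by 0.67 ± 0.17, a 1.59-fold higher mean, with an unadjusted p of 0.00977 and an adjusted p of 0.320. Acsl5 was between 4.01 and 4.14 in all 4 livers.

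Triglyceride assembly begins with glycerol 3-phosphate acyltransferase, for which Gpam codes, and ends with the diacylglycerol acyltransferases Dgat1 and Dgat2. Lpin1, the lipin that turns phosphatidic acid into diacylglycerol and also acts as a nuclear coregulator, was at -0.96 and -1.80 in the wild type livers and at -0.80 and 0.32 in the Cyp3a-/- livers. Both Cyp3a-/- livers were above both wild type livers, Cyp3a-/- 1 by little. The difference was 1.14 ± 0.45, a 2.21-fold higher mean, with an unadjusted p of 0.0486 and an adjusted p of 0.498. With 1 liver left out in turn it was between 0.58, without Cyp3a-/- 2, and 1.70, without Cyp3a-/- 1. For a second Lpin1 probe neither wild type liver was well above background, and it was at -4.12 and -3.27 in the Cyp3a-/- livers, at least 2.13-fold higher. That bound sets the Cyp3a-/- mean against the lowest signal well above background on each wild type array, or the probe's own where higher. Lpin2, its relative, was at 0.74 and 0.84 against 0.80 and 1.32, a difference of 0.27 ± 0.23.

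Dgat2, the enzyme that handles most newly made fatty acid in liver triglyceride, was at 6.50 and 6.49 in the wild type livers and at 6.78 and 6.74 in the Cyp3a-/- livers. The livers of each genotype lay close together and did not overlap, and the difference was 0.26 ± 0.17 (adjusted p = 0.648). Dgat1, which re-esterifies incoming fatty acid, had the opposite sign, at 0.77 and 0.90 against 0.43 and 0.68, a difference of -0.28 ± 0.19. Mogat1, a monoacylglycerol acyltransferase, was at -3.93 and -3.00 against -4.18 and -3.78, with overlapping livers. Its difference was -0.52 ± 0.35 (adjusted p = 0.660), and it was -0.056 without wild type 2 and -0.98 without wild type 1. The Mogat1 signal was near the lowest well above background, which was between -4.93 and -4.65 over the arrays. With normexp background correction its difference was -0.21. Gpam was at -1.18 and -1.31 against -1.50 and -0.92, so the Cyp3a-/- livers lay on both sides of the wild type pair. Agpat2 and Agpat3, which add the second acyl chain, differed by -0.02 and -0.06.

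Neither transcription factor of the pathway passed the test. Srebf1, which codes for SREBP-1, was at 1.01 and 0.37 in the wild type livers and at 0.72 and 1.56 in the Cyp3a-/- livers. Its livers overlapped, and the difference was 0.45 ± 0.36 (adjusted p = 0.705). It was 0.032 without Cyp3a-/- 2 and 0.87 without Cyp3a-/- 1. Mlxipl, which codes for ChREBP, was at 5.87 and 5.65 against 5.58 and 5.80, a difference of -0.07 ± 0.19, and its second probe gave 0.11. Of the 9 members with several measured probes, only Acss2 and Mlxipl had probes of opposite sign; the second Lpin1 probe was measured in the Cyp3a-/- livers alone, so its sign is no separate check.

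The Cyp3a-/- livers also stood apart from each other. They were on separate slides, so slide and liver cannot be told apart in this gap. Of the 31 members, 25 (80.6%) were higher in Cyp3a-/- 2 than in Cyp3a-/- 1, against 55.1% of all features. The count was 26 with normexp background, 25 with quantile normalization, 30 with median scaling and 24 with the probes of a gene averaged. The share of all features was not computed in these settings. Median scaling moves all features of an array by the same amount, so its count says nothing particular to the members. Cyp3a-/- 2 was higher by 0.5 or more for 10 members (32.3%, against 7.88% of features). These were Acly, Acss2, Aacs, Acacb, Fasn, Thrsp, Gpam, Lpin1, Lpin2 and Srebf1, with gaps from 0.51 for Acss2 to 1.45 for Thrsp. A gap of that size in the other direction was seen for 1 member, Me1 (3.23%, against 13.7% of features). Hepatocyte markers lay the same way, 9 of 10 higher in Cyp3a-/- 2 with a median gap of 0.22, where the median gap was 0.25 for the members and 0.04 for all features. Genes of sugar entry and glycolysis did so for 17 of 22 and stellate cell markers for 7 of 8. Other enzymes of fatty acid and glycerolipid synthesis did so for 17 of 22, with a median gap of 0.09. Other lists did not lean this way, with 2 of 6 endothelial, 0 of 4 cholangiocyte, 1 of 3 erythroid and 0 of 2 neutrophil markers higher in Cyp3a-/- 2. The part of these shifts in the members' gap was not tested, and no test of the gap was made, since it is a contrast of single livers.

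The wild type livers, which shared a slide, did not stand apart in the same way. Wild type 2 was above wild type 1 for 17 members (54.8%), against 46.9% of all features. Of the 10 members with the gap between Cyp3a-/- livers, however, 9 were lower in wild type 2 than in wild type 1, with Lpin2 as the exception. Among all 1372 features with such a gap, 1079 (78.6%) were. Srebf1, which codes for SREBP-1, was among these 9, and was 0.84 higher in Cyp3a-/- 2 than in Cyp3a-/- 1. A part of Srebf1 in the gap of the other members was not tested. Of the 10, 3 had livers that did not overlap between genotypes, namely Thrsp, Lpin1 and Aacs (30.0%), against 327 of the 1372 features (23.8%). Elovl5, Scd1, Fads2 and Acsl3 were outside the 10, and their Cyp3a-/- livers lay within 0.274 of each other. They were named for a small p, which favours genes whose livers lie close, so this closeness is no separate finding.

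**Figure D3:**
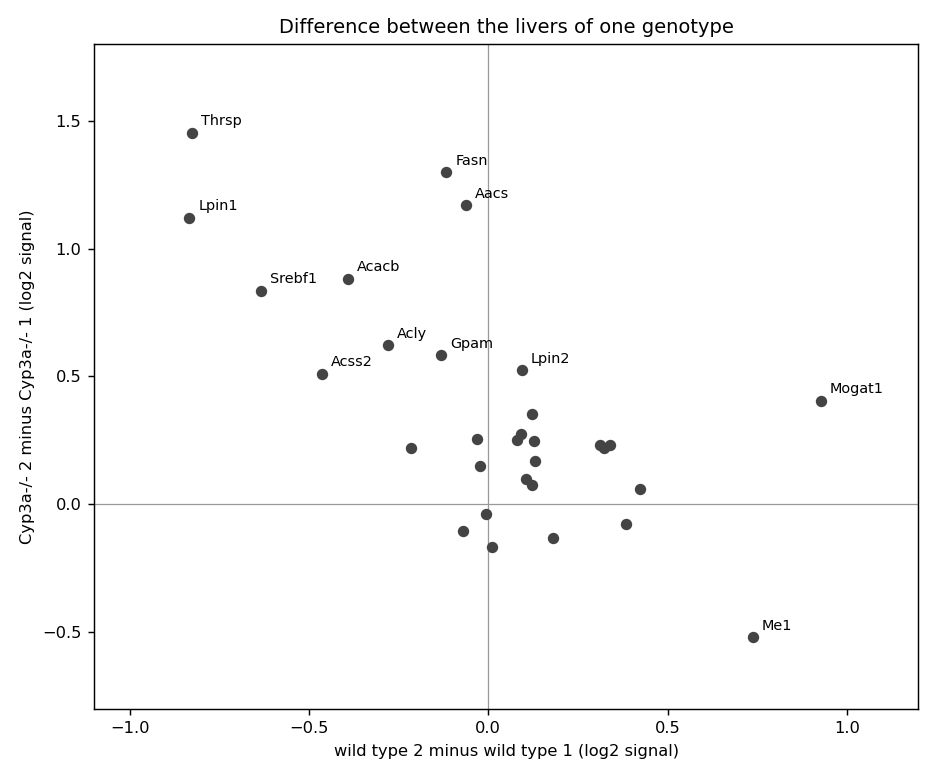
Difference between the livers of a genotype for each of the 31 members: the x axis is wild type 2 minus wild type 1 and the y axis Cyp3a-/- 2 minus Cyp3a-/- 1, both in log2 units; members with a gap of 0.5 or more in either are labelled. Of the 31 points, 25 lie above 0 on the y axis and 17 lie right of 0 on the x axis, with Thrsp, Fasn, Aacs and Lpin1 more than 1 unit up.

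Other genes of the pathway were read from lists beyond the 31 members. Of 26 other enzymes of fatty acid and glycerolipid synthesis, 22 were measured, 0 passed the adjusted threshold, and at an unadjusted p under 0.05 there were 0 higher and 3 lower, with a median difference of -0.05. G6pdx, the first enzyme of the pentose phosphate path and a source of NADPH, was at 0.10 and 0.30 in the wild type livers and at -0.82 and -0.61 in the Cyp3a-/- livers, a difference of -0.92 ± 0.19 (adjusted p = 0.246). Scd3, another stearoyl-CoA desaturase, differed by -0.88 ± 0.23 (adjusted p = 0.323). Gpat3, a glycerol 3-phosphate acyltransferase of the endoplasmic reticulum, differed by -1.08 ± 0.29 (adjusted p = 0.334). All 3 were lower in both Cyp3a-/- livers than in both wild type livers.

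Of 25 genes that control SREBP-1, LXR or ChREBP activity or respond to it, all were measured and 0 passed, with 3 higher and 1 lower at an unadjusted p under 0.05 and a median of -0.07. Insig2, which holds SREBP in the endoplasmic reticulum, was at 4.59 and 4.80 in the wild type livers and at 5.50 and 5.48 in the Cyp3a-/- livers, a difference of 0.80 ± 0.18 (adjusted p = 0.272). Ppp1r3b, a glycogen-targeting subunit of protein phosphatase 1, differed by 0.74 ± 0.20 (adjusted p = 0.331), and Nr0b2, the corepressor SHP, by -0.92 ± 0.26 (adjusted p = 0.344). Of 22 genes of sugar entry and glycolysis, 0 passed, with a median of 0.10. Slc2a2, the glucose transporter of hepatocytes, differed by 0.48 ± 0.19 (adjusted p = 0.498).

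Most genes of the lipid droplet and lipolysis list had negative differences. Of its 20 genes 19 were measured, 18 of those were below 0 and 0 passed, with a median of -0.27 against 0.01 over all features. Of all 17406 features, 8452 were below 0. Cd36, which takes up fatty acids, was at -0.38 and -0.19 in the wild type livers and at -1.49 and -1.89 in the Cyp3a-/- livers, a difference of -1.41 ± 0.21 (adjusted p = 0.137). Plin4, a droplet coat protein, differed by -1.11 ± 0.30 (adjusted p = 0.331). G0s2, an inhibitor of the lipase ATGL, was at 2.31 and 3.86 against 1.53 and 0.65, a difference of -1.999 ± 0.56 (adjusted p = 0.347). Wild type 2 was the highest liver for 15 of the 19, and for 4191 of all 17406 features. Taken as a median deviation from each gene's mean, this list stood at 0.04 and 0.33 in the wild type livers and at -0.21 and -0.09 in the Cyp3a-/- livers.

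The 31 members by the same measure stood at -0.03 and 0.04 in the wild type livers and at -0.13 and 0.11 in the Cyp3a-/- livers. Cholesterol synthesis, 21 of 21 genes measured and 0 passing, stood at -0.06 and 0.03 in wild type and at -0.38 and 0.36 in Cyp3a-/-. All 21 of its genes were higher in Cyp3a-/- 2 than in Cyp3a-/- 1, and its median difference between genotypes was 0.00. Cyp3a-/- 2 was the highest liver for 12 of the 31 members and for 20 of the 21 cholesterol genes. Cyp3a-/- 1 was the lowest for 15 of the 31 and 20 of the 21. Over all 17406 features, Cyp3a-/- 2 was the highest for 4619 and Cyp3a-/- 1 the lowest for 5661.

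**Figure D4:**
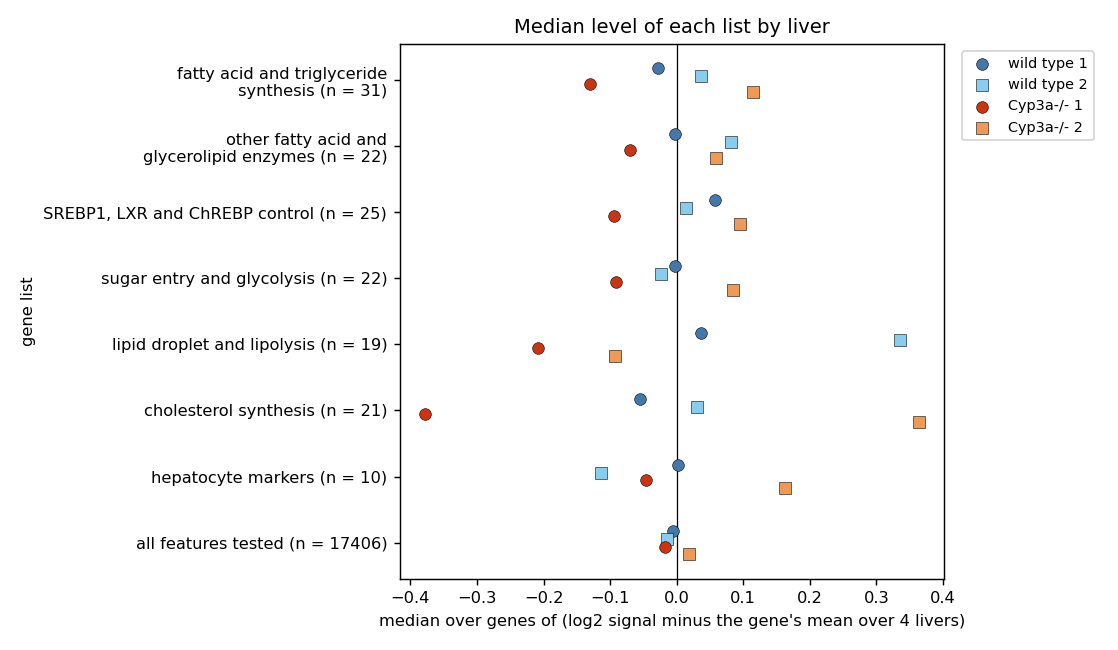
Median deviation of each gene list in each liver from the gene's mean over the 4 livers, in log2 units; points are livers and colours genotypes. The cholesterol synthesis list is at -0.38 in Cyp3a-/- 1 and 0.36 in Cyp3a-/- 2, the lipid droplet list is highest in wild type 2 (0.33), and the members lie between -0.13 and 0.11.

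Markers of other cells of the organ were measured beside these lists. Of 10 hepatocyte markers, all were measured and 7 were highest in Cyp3a-/- 2, and their summed level was 11.58 and 11.40 in wild type and 11.54 and 11.65 in Cyp3a-/-, with a median difference between genotypes of 0.12. The part of such a shift in the members' values was not tested. Of 7 adipocyte markers, Adipoq, Cidea, Lep, Plin1 and Retn were well above background on no array, and the other 2 had a summed level from 0.52 to 0.70 in wild type and from 0.70 to 0.93 in Cyp3a-/-. Stellate cell markers were below 0 for 8 of 8, where 8452 of all 17406 features were, with a median of -0.23. None had an unadjusted p under 0.05. Cyp3a-/- 1 was the lowest liver for 7 of the 8 and wild type 1 the highest for 7, against 5661 and 3785 of all features. Their summed level was 6.14 to 6.29 in wild type and 5.90 to 6.11 in Cyp3a-/-. Of 6 endothelial, 4 cholangiocyte and 2 neutrophil markers measured, 0 had an unadjusted p under 0.05. Of 7 macrophage markers, all were measured, 1 was lower at an unadjusted p under 0.05, and the summed level was 5.84 and 5.88 in wild type and 5.53 and 5.68 in Cyp3a-/-. Of 6 lymphocyte markers 5 were measured, 2 were lower at that p, and the summed level was 2.03 and 1.64 against 1.96 and 1.59. Of 4 erythroid markers 3 were measured, and 2 were higher at that p, Hemgn by 0.60 and Tfrc by 0.83. Alas2 differed by 0.007. The summed erythroid level was 7.38 and 7.39 against 7.92 and 7.96. It mostly follows Hemgn, the brightest probe of the list, which was at 7.23 and 7.21 against 7.82 and 7.82. The part of these other cells in the members' values was not tested.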

How the data were processed

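Per the labels' protocols, Cy3-labelled cRNA was made from liver total RNA of 2 wild type mice and 2 mutants, with 1 array for each. The authors deposited scanner output; its spot intensity comes from Agilent Feature Extraction (11.5.1.1 in the submitters' processing notes), with background subtracted but arrays not normalized to each other per the file headers. They give the array design on build mm9, so no coordinates were taken from them. The deposited log2 table lists 39417 of the 39429 probes, each with a median of 0 over the arrays (tolerance 0.002), so levels are not in it; its columns have medians of 0.06 and -0.07 (wild type) and -0.02 and 0.02 (Cyp3a-/-), and followed the scaled values below, centred alike, in scale and direction (correlation over probes 1.00 for each array). It served as an alternative. Log2 intensity was scaled to each array's 75th percentile, a probe was kept where both arrays of some genotype had it well above background (21508 of 39429), and the brightest kept probe stood for a gene. Symbols came from RefSeq GRCm38.p6 by accession, for 28025 probes. Genotypes were compared with limma 3.58.1 (R 4.3.3, lmFit and eBayes, no covariates), with Benjamini-Hochberg adjustment over 17406 features. The code was tested on simulated data. P-values set the genotype difference against the spread of livers within a genotype, which limma moderates over all features. The labels describe the 4 livers as separate animals, and 2 arrays per genotype limit the precision. The wild type spread lies within a slide and the Cyp3a-/- spread across slides. Same-numbered livers did not deviate together (correlation -0.102), so replicate numbers were not taken as pairs. Genes described in full had an unadjusted p under 0.05, an absolute difference of 0.5 or more, or livers of a genotype at least 1 apart, or were Acaca, Fasn, Srebf1 and Dgat2; from other lists up to 3 with the smallest p, of which 1 is not reported here. Members and lists were chosen with earlier results of these data known. Other background corrections, scalings, filters, probe rules, blocks and left-out livers were tried.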

Additional observations from a re-analysis of the deposited data

How the results depend on the processing

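The number of features with an adjusted p under 0.05 was 48; it was 659 with median scaling, under which limma gave every gene the same variance, 13 without the filter on dim probes, and between 7 and 506 when one liver was left out, where the lone liver is assumed to vary like the other genotype's. With the replicate block it was 58, and with crossed numbers, chosen after seeing the data, 56. With slide as a random block it was 33 (correlation 0.355, set from the ratio of squared differences within the genotypes because limma's duplicateCorrelation gave no estimate). The share of called features that were higher in Cyp3a-/- was 64.6%, against 30.8% without the filter, and 12.5%, 14.3%, 50% and 81% without wild type 1, wild type 2, Cyp3a-/- 1 and Cyp3a-/- 2. Of the members 0 passed, 2 did with median scaling (Thrsp, adjusted p = 4.82e-06, and Lpin1, adjusted p = 0.00988, both from limma), and between 0 and 1 with a liver left out (Aacs without Cyp3a-/- 2, limma adjusted p = 0.042). Members at an unadjusted p under 0.05 numbered 6, and between 1 and 9 with a liver left out; without wild type 2 only Elovl5 was left. These 6 kept their sign in all 13 settings, most of which could not have turned it. Their genotypes did not overlap, so leaving out a liver could not change the sign. Blocks, the missing filter and the deposited table used the same values of these genes. Averaging of probes altered only Lpin1 of the 6, through a second probe measured in the Cyp3a-/- livers alone, so it could not turn a sign either. Only the other background correction and the other scalings could have turned a sign. Signs turned as follows: Fads1 0.025 with normexp background and 0.029 with median scaling, Agpat2 0.014 with median scaling, Acss2 -0.030, Tkfc -0.028, Elovl2 -0.012 and Acsl5 -0.080 with quantile normalization, and Acss2 -0.051 and Mlxipl 0.017 with probes averaged. With a liver left out the differences ranged from -0.0033 to 0.62 for Acly, -0.20 to 0.31 for Acss2, -0.19 to 0.13 for Slc25a1, -0.65 to 0.090 for Me1, -0.041 to 0.21 for Tkfc, -0.78 to 0.52 for Fasn, -0.16 to 0.15 for Fads1, -0.029 to 0.076 for Acsl5, -0.25 to 0.33 for Gpam, -0.14 to 0.11 for Agpat2 and -0.18 to 0.036 for Mlxipl. The causes were not tested. Signal over background limits Pnpla3, which was not measured.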
